A study of Caenorhabditis elegans with 2 samples.

Results

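Peaks of the MADF-domain protein MADF-6 were examined at 10 heat shock protein genes of Caenorhabditis elegans, chosen by name from 19973 protein-coding genes. The genes were hsp-1, hsp-90, hsp-110, hsp-3, hsp-6, hsp-60, hsp-4, hsp-70, hsp-16.2 and hsp-16.41, and each was found by its symbol in the annotation. The data come from chromatin immunoprecipitation followed by sequencing (ChIP-seq), with anti-GFP antibody, of whole worms of strain RW12237. In this line a CRISPR insertion fuses madf-6 to TY1, EGFP and 3xFLAG tags at its own locus. A single group was measured, young adults 63 h old that had been synchronised as starved first-stage larvae after bleaching, in 2 biological replicates. Both replicates carry the tagged allele, no untagged strain was analysed here, and the labels name no heat or other stress treatment of the adults. Whole animals mix all tissues, so no peak can be placed in a cell type.

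Heat shock proteins are molecular chaperones that bind unfolded proteins and help them fold, stay soluble or be degraded. The HSP70 proteins work in an ATP-driven cycle with J-domain partners and nucleotide exchange factors, HSP90 matures client proteins, the mitochondrial chaperonin encloses them in a barrel, and small heat shock proteins hold them without ATP. Some members are made at all times, while others are silent or low until heat or misfolded protein in one compartment switches them on, in the cytosol through the heat shock factor HSF-1, in the endoplasmic reticulum through IRE-1 and XBP-1, and in mitochondria through ATFS-1. By that background, hsp-1, hsp-90, hsp-110, hsp-3, hsp-6 and hsp-60 were counted as constitutive (6 genes) and hsp-4, hsp-70, hsp-16.2 and hsp-16.41 as stress-induced (4 genes). Members hsp-6 and hsp-60 are also induced by mitochondrial stress, although they are expressed without it.

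The sequences under the strongest peak of each gene that had one are shown first, because the position of these summits relative to the gene and its neighbours is what the results turn on. Each is the 101 bases centred on a summit, on the strand of the named heat shock gene, read from the WBcel235 genome, with the summit and 5 bases to each side in capitals. They lie at chrIII:1619031-1619131 for hsp-60, chrIII:8447118-8447218 for hsp-110, chrV:14685710-14685810 for hsp-90, chrV:4827116-4827216 for hsp-6, chrII:7353169-7353269 for hsp-4 and chrIV:17278365-17278465 for hsp-1.
hsp-60: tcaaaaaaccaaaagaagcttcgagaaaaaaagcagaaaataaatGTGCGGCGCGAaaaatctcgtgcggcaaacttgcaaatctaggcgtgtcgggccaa
hsp-110: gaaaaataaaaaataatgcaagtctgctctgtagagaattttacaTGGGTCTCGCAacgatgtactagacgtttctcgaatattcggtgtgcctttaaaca
hsp-90: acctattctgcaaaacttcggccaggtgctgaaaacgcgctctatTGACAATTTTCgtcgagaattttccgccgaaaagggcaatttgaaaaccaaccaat
hsp-6: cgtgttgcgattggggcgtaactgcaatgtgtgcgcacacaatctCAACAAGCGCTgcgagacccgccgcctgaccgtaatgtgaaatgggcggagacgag
hsp-4: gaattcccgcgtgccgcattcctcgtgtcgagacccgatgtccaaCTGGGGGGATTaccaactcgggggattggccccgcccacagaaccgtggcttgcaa
hsp-1: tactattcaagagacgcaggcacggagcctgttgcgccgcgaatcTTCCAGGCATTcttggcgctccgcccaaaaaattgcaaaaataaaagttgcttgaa

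These windows differed widely in base composition, from 36.6% G and C at hsp-110 through 43.6% at hsp-60 and hsp-90 and 48.5% at hsp-1 to 58.4% at hsp-6 and 62.4% at hsp-4. The median over the windows of all 4384 peaks of the list was 43.6%. The windows at hsp-6 and hsp-4 were thus the richest in G and C, and that at hsp-110 lay below the median.

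A single stretch of 220 bases between hsp-16.2 and hsp-16.41 (chrV:1804958-1805177, forward strand) is shown as the counterpart of those windows, since it holds the 5′ regions of both small heat shock genes and no thresholded peak. Capitals mark matches to GAANNTTC or TTCNNGAA, the paired forms of the heat shock element that HSF-1 recognises.
hsp-16.2 and hsp-16.41: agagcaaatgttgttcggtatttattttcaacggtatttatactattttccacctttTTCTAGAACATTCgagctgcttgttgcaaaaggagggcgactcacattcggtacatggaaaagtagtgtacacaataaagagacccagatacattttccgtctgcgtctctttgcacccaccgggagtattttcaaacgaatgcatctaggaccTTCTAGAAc

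Peaks were taken from 8 deposited lists. The conservative list, made from both replicates, held 4384 peaks with a median signal of 149 (the signal is the authors' enrichment value, whose scale differs between lists). The thresholded list of replicate 1 held 2803 peaks and that of replicate 2 held 4519. Every peak in the thresholded lists had a score of at least 830, where the score is a scaled measure of reproducibility with a cap of 1000. The ranked lists, made before that threshold, held 57453 to 65847 peaks each. Sequencing depth is unknown, because peak lists carry no counts of reads. A gene was said to have a peak when a summit, the highest point of a peak, fell at most 1000 bp from the gene's annotated start (5′ end), and rank 1 is the highest signal of a list.

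MADF-6 peaks were found at 6 of the 10 heat shock protein genes, namely hsp-1, hsp-90, hsp-110, hsp-6, hsp-60 and hsp-4. The same rule gave a peak to 15.8% of all protein-coding genes. The same 6 genes had a peak in the thresholded list of replicate 1, where 11.4% of all genes had one, and in that of replicate 2, where 16.52% had one. Among the constitutive genes 5 of 6 had a peak, all but hsp-3, and among the stress-induced genes 1 of 4 did, which was hsp-4. With so few genes, of which 2 share one 5′ region, the groups were compared by these counts without a test. Because no untagged strain was compared, binding by MADF-6 and unspecific recovery of strongly transcribed chromatin cannot be told apart at these genes. With summits within 500 bp, where 12.3% of all genes had a peak, hsp-60 and hsp-4 dropped out and 4 members remained, all of them constitutive. Of these, hsp-1 and hsp-90 remained through weaker peaks alone, with signals of 85.5 and 19.0 at hsp-1 and 228 at hsp-90. Their strongest summits lay 544 bp upstream and 842 bp inside, and that of hsp-4 lay 574 bp upstream.

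**Figure D1:**
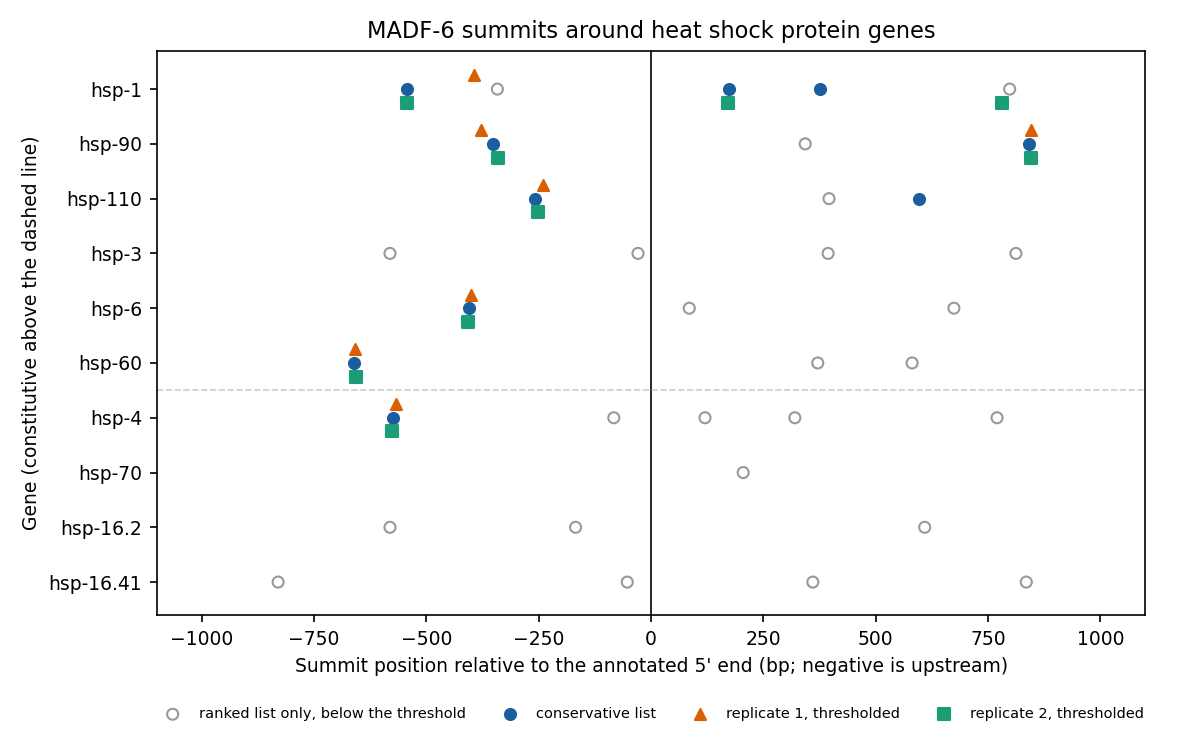
Summit positions (x axis, bp from the annotated 5′ end, negative upstream) at each heat shock protein gene (y axis). Blue circles are the conservative list, orange triangles and green squares the thresholded lists of replicates 1 and 2, and open grey circles peaks of the ranked list behind the conservative list that are not in it; hsp-3, hsp-70, hsp-16.2 and hsp-16.41 have open circles alone.

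The cytosolic chaperone genes hsp-1, hsp-90 and hsp-110 each had more than one conservative peak. The gene hsp-1 encodes the constitutive cytosolic HSP70 (WBGene00002005, chromosome IV, 17278959 to 17281330, plus strand). Its strongest peak had a summit 544 bp upstream, at 17278415, with a signal of 253 and rank 1214 of 4384. This summit lay between protein-coding genes, within the annotated non-coding RNA gene F26D10.23. Replicate 2 placed the summit at the same base (signal 190, rank 1092 of 4519). Replicate 1 placed it 150 bp nearer to the gene, 394 bp upstream (signal 77.9, rank 1274 of 2803). The replicates thus shared a peak here but not its summit, which was the widest gap among the strongest peaks of the 6 genes. The less strict list held a further peak 342 bp upstream (signal 140), whose score was 107 in the ranked list that the conservative peaks were drawn from.

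Inside hsp-1 there were 2 further conservative peaks, with summits in coding exons at 173 and 375 bp from the 5′ end. Their signals were 85.5 and 19.0, both with a score of 847, close to the lowest score of the list. The 2 peaks overlapped each other by 118 bp, and 93 of the 4384 peaks (2.12%) had a signal as low as that of the second. Replicate 2 had a thresholded peak 172 bp inside the gene with a signal of 69.1, and its next peak lay 781 bp inside. Replicate 1 had no thresholded peak inside hsp-1, and its ranked peak 357 bp inside had a signal of 25.5 and a score of 772. Signal within the gene body of hsp-1 therefore passed the threshold in 1 of the 2 replicates.

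The gene hsp-90 encodes the cytosolic HSP90 chaperone (WBGene00000915, chromosome V, 14684918 to 14688545, plus strand). A first summit lay 352 bp upstream, in an intron of the opposite-strand gene C47E8.4, with a signal of 228 (rank 1369). A stronger one lay 842 bp inside hsp-90 with a signal of 628 (rank 361). For the inner peak replicate 1 gave a signal of 220 (rank 308 of 2803) and replicate 2 gave 436 (rank 349 of 4519), with summits 1 bp apart. For the outer peak the signals were 83.0 in replicate 1 and 142 in replicate 2, at ranks 1176 and 1541. The inner peak ranked higher than the outer one in both replicates. It sat in the intron after the first exon of hsp-90, 400 bp upstream of a second annotated transcript start at 14686160.

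The gene hsp-110 encodes an HSP70 relative that acts as a nucleotide exchange factor for HSP70 (WBGene00016250, chromosome III, 8443910 to 8446909, minus strand). Its main summit lay 259 bp upstream with a signal of 854 and rank 210. The signals were 270 in replicate 1 (rank 218 of 2803) and 605 in replicate 2 (rank 201 of 4519), with summits 11 bp apart. A second peak with a summit 596 bp inside the gene, in an intron, had a signal of 130 and a score of 1000 in the conservative list but was in neither replicate's thresholded list. At that place the ranked lists held a signal of 39.8 with a score of 401 in replicate 1 and of 86.7 with a score of 107 in replicate 2.

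The mitochondrial chaperone genes hsp-60 and hsp-6 each had a single, strong upstream peak found in both replicates. The gene hsp-60 encodes the mitochondrial chaperonin (WBGene00002025, chromosome III, 1619742 to 1625803, plus strand). Its summit lay 661 bp upstream with a signal of 948 and rank 172, the highest of all members. The signals were 381 in replicate 1 (rank 123 of 2803) and 566 in replicate 2 (rank 233 of 4519), and the summits were 2 bp apart. The gene hsp-6 encodes the mitochondrial HSP70 (WBGene00002010, chromosome V, 4824124 to 4826760, minus strand), and its summit lay 406 bp upstream with a signal of 540 and rank 450. The signals were 163 in replicate 1 (rank 478 of 2803) and 376 in replicate 2 (rank 446 of 4519), with summits 7 bp apart. This summit fell within the overlapping non-coding RNA genes C37H5.15 and C37H5.16, annotated on opposite strands.

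The genes of the endoplasmic reticulum HSP70, known as BiP, differed from each other. The worm has a copy that is abundant without stress, hsp-3, and a copy that responds strongly to unfolded protein in the endoplasmic reticulum, hsp-4. The stress-responsive hsp-4 (WBGene00002008, chromosome II, 7350112 to 7352645, minus strand) had a summit 574 bp upstream with a signal of 282 and rank 1062. The signals were 80.9 in replicate 1 (rank 1216 of 2803) and 197 in replicate 2 (rank 1050 of 4519), with summits 10 bp apart. No other protein-coding 5′ end lay within 1000 bp of this summit.

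No thresholded list held a peak at hsp-3 (WBGene00002007, X chromosome, 6089028 to 6092124, minus strand), although the ranked list behind the conservative list held 4 there. The strongest of them, 29 bp upstream, had a signal of 75.1, above the 19.0 of the weakest hsp-1 peak that did pass, but a score of 94. The best ranked signal was 25.01 in replicate 1, 804 bp inside the gene, and 34.55 in replicate 2, 469 bp inside, with scores of 58 and 337. The replicates thus disagreed on where the strongest ranked signal of hsp-3 lay. It is the only X-linked member, and 2.93% of X-linked genes had a conservative peak by the same rule.

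The heat-inducible cytosolic genes hsp-70, hsp-16.2 and hsp-16.41 carried ranked signal alone. The gene hsp-70 encodes an HSP70 strongly induced by heat (WBGene00002026, minus strand, 9320325 to 9322519 on the first chromosome). Its best ranked signal was 13.1 in replicate 1, 99 bp inside the gene (score 68), and 28.9 in replicate 2, 342 bp upstream (score 148). In the list made from both replicates the value was 41.3, 205 bp inside, with a score of 212. The divergent genes hsp-16.2 (WBGene00002016, chromosome V, 1804334 to 1804957, minus strand) and hsp-16.41 (WBGene00002018, chromosome V, 1805178 to 1805875, plus strand) encode small heat shock proteins. Their best ranked summits lay in the shared stretch printed above, with a signal of 15.3 in replicate 1 (score 51), 30.9 in replicate 2 (score 266) and 45.2 in the list from both (score 282). These scores were all under 830. Ranked signal of this kind was common, since 51.4% of all protein-coding genes had a summit within 1000 bp in the ranked list from which the conservative peaks come, as did all 10 members.

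**Figure D2:**
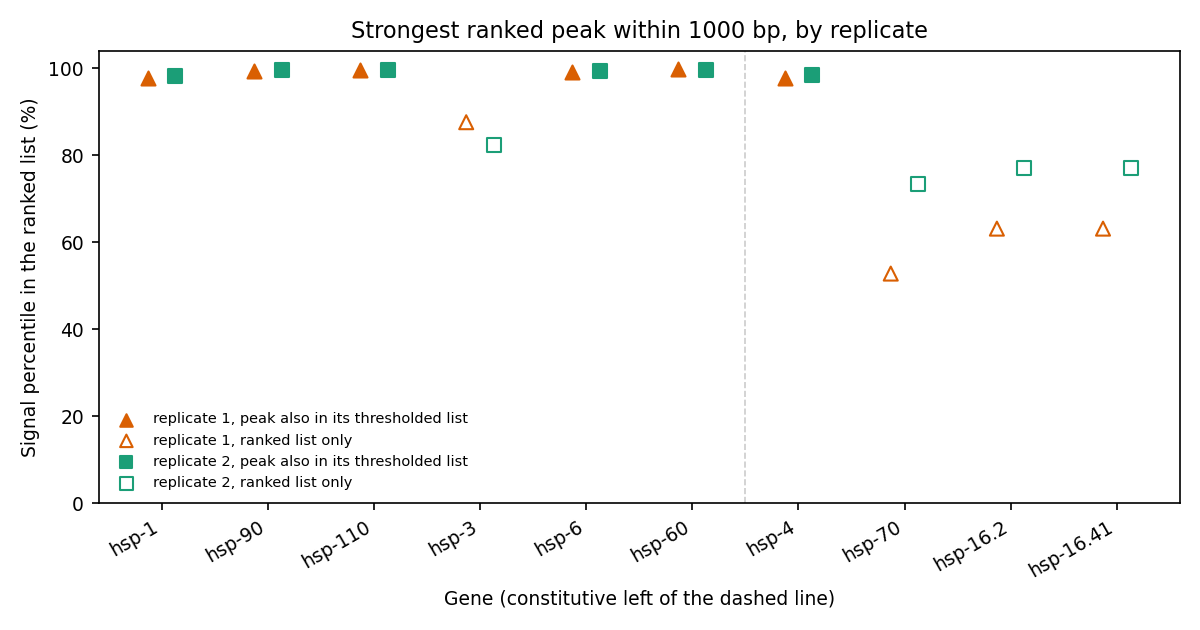
Signal percentile of the strongest ranked peak within 1000 bp of each gene (y axis, %, where 100 is the highest signal of the list) for the 2 replicates (triangles and squares). Filled symbols mark genes with a peak in that replicate's thresholded list; the 6 such genes lie above 97%, hsp-3 at 87.6% and 82.3%, and hsp-70 lowest at 52.8% and 73.4%.

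The strongest ranked peak of each gene was also placed by percentile within each replicate's ranked list. Over the 6 genes with a thresholded peak the median percentile was 99.3% in replicate 1 and 99.4% in replicate 2. The 4 genes without a peak ranged from 52.8% to 87.6% in replicate 1 and from 73.4% to 82.3% in replicate 2. Since a high signal is part of what puts a peak in a thresholded list, these values are a description only. The same percentiles are not given here for all genes with and without a peak, so no result about the members is drawn from them. In the conservative list the strongest peaks of the 6 genes ran from 253 at hsp-1 to 948 at hsp-60, with a median signal of 584, against 206 for the strongest peaks of all 3158 genes with one. In order of signal hsp-60 and hsp-110 came first, then hsp-90 and hsp-6, then hsp-4 and hsp-1. Neighbours in this order were not always ordered alike by the replicates, since hsp-110 came before hsp-60 in replicate 2 and after it in replicate 1, and hsp-1 came last in both.

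**Figure D3:**
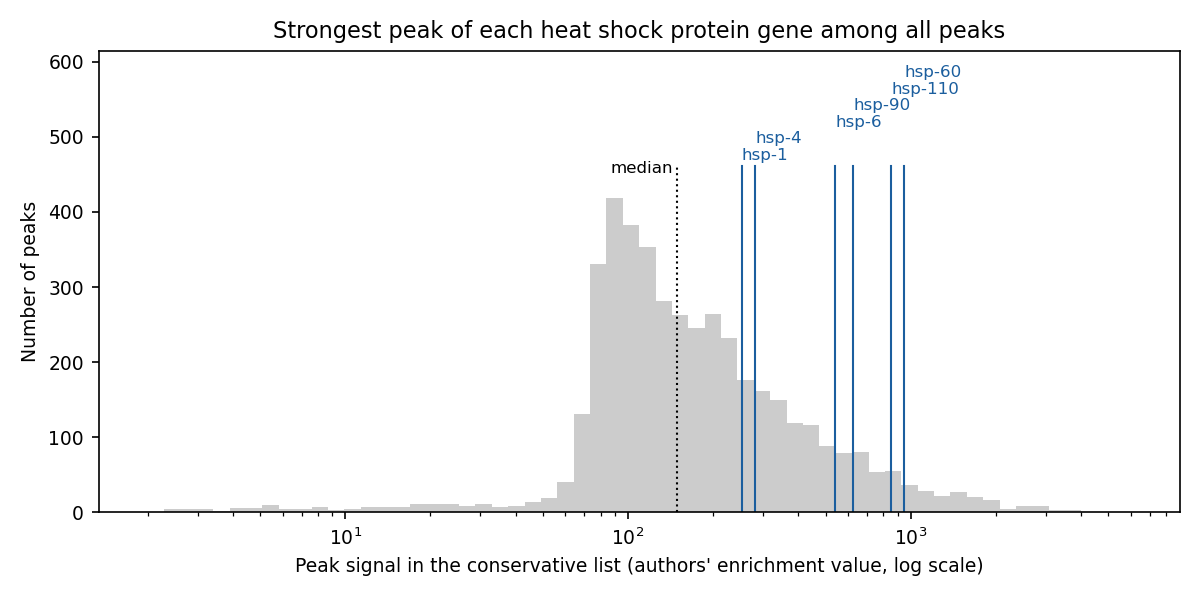
Number of conservative peaks (y axis) by signal (x axis, log scale, the authors' enrichment value), with lines at the strongest peak of each heat shock protein gene and a dotted line at the median of 149. All 6 lines lie to the right of the median, between 253 and 948.

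The 4 strongest of these peaks stood nearer to the 5′ end of another gene than to that of the heat shock gene. The hsp-60 summit lay 152 bp upstream of Y22D7AL.10, which RefSeq annotates as the mitochondrial heat shock protein of 10 kDa, the co-chaperonin that caps the HSP60 barrel, and which is transcribed away from hsp-60. The hsp-110 summit lay 185 bp upstream of rpn-3, a gene for a subunit of the proteasome's regulatory particle. The hsp-6 summit lay 194 bp upstream of C37H5.5, annotated as a homologue of nucleolar complex protein 3. The inner hsp-90 summit lay 275 bp upstream of C47E8.4, annotated as a homologue of FAM50, whose 5′ end lies inside hsp-90 on the other strand. In each case both genes are on opposite strands, and the peak lists cannot tell for which of them the protein was bound.

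**Figure D4:**
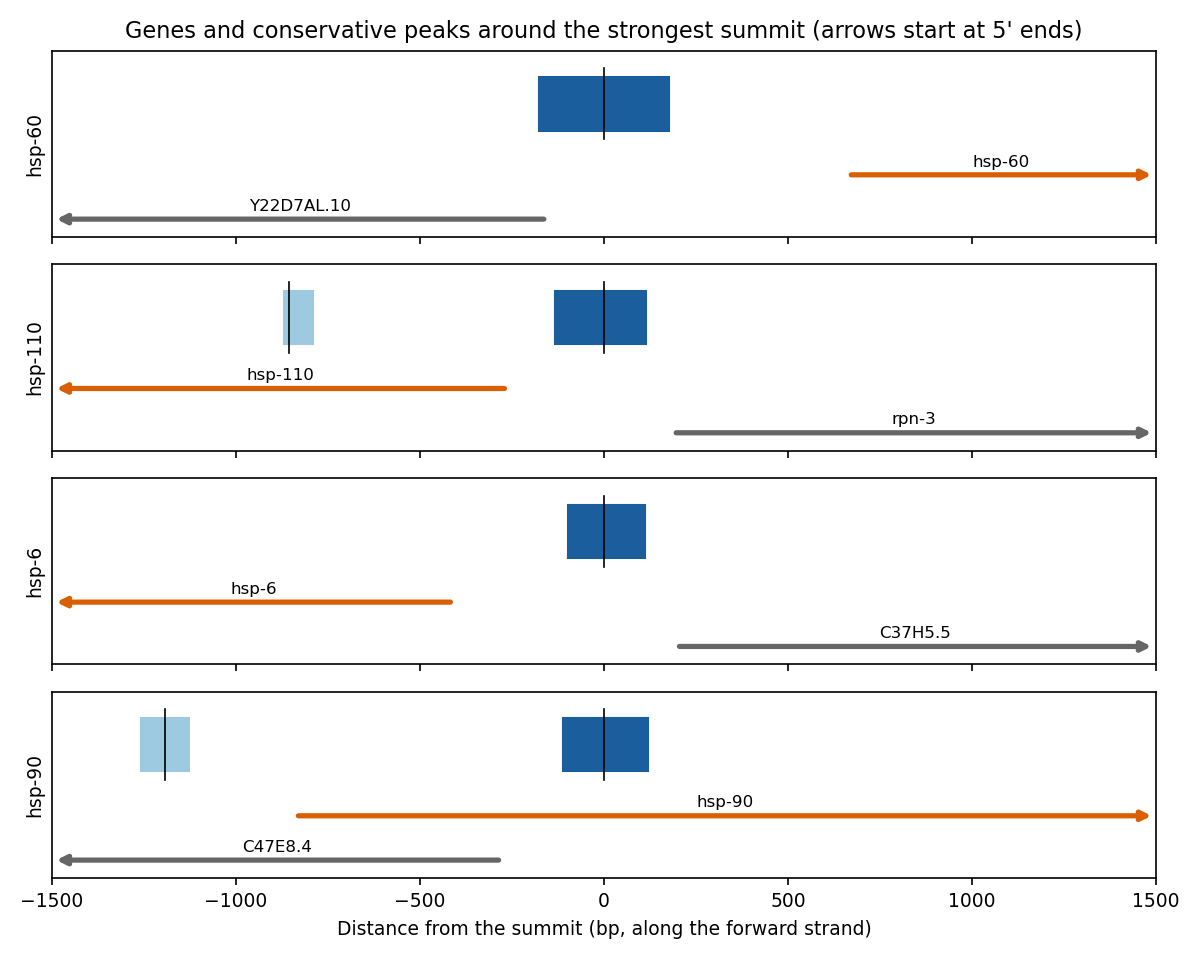
Genes (arrows from the 5′ end in the direction of transcription, the heat shock gene in orange, drawn to the edge of the panel) and conservative peaks (blocks, with a line at the summit) at 4 loci, against distance in bp from the strongest summit along the forward strand. The strongest summit lies 152 to 275 bp upstream of the neighbour and 259 to 842 bp from the 5′ end of the heat shock gene.

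Among all 3158 genes with a conservative peak, 26.2% had their strongest summit nearer to another gene, against 4 of the 6 heat shock genes. The strongest summit was within 1000 bp of an opposite-strand 5′ end for 42.8% of all such genes and for 4 of the 6. The strongest summits were also far from the gene start, with a median position of 475 bp upstream against 184 bp upstream for all genes with a peak, and 4 of the 6 lay beyond 500 bp against 26.9%. When each summit was given to its nearest protein-coding 5′ end alone, which left 12.3% of all genes with a peak, hsp-60 and hsp-6 lost theirs, hsp-110 kept the weak inner one and hsp-90 the outer one.

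The genes whose strongest ranked signal was most like that of hsp-60 were sought over the 2 replicates, by the summed difference in percentile. Besides Y22D7AL.10, which shares the peak, these were drr-2, annotated as an RNA recognition motif protein, and set-16, which share a summit with each other (difference 0.0293 percentage points), and B0228.7, annotated as a methylthioadenosine phosphorylase (0.0473). Their percentiles were 99.8 in replicate 1, against 99.784 for hsp-60, and 99.6 to 99.7 in replicate 2, against 99.643.

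Heat shock elements were looked for in the 300 bases before each 5′ end, on both strands. The forms GAANNTTC and TTCNNGAA, which may overlap, each occurred at 7 of the 10 genes, the same ones for both forms, against 19.0% and 18.0% of all promoters of that length. Both were present at hsp-1, hsp-90, hsp-110, hsp-4, hsp-70, hsp-16.2 and hsp-16.41, and neither form in these 300 bases at hsp-3, hsp-6 or hsp-60. The hsp-60 summit lies farther upstream than that, and its own window is described with the other summit windows. Where the forms overlap by 3 letters they make 3 alternating units in a row, a combination looked for after the single forms had been seen. It occurred at 6 genes, the same ones without hsp-4, and in 1.92% of all promoters. Genes with this triple element thus included 3 with a MADF-6 peak (hsp-1, hsp-90 and hsp-110) and 3 without (hsp-70, hsp-16.2 and hsp-16.41). Of the latter, hsp-16.2 and hsp-16.41 share an element at chrV:1805015-1805027 between them, so these are not separate cases. The 300 bases before hsp-16.2 hold another, at chrV:1805169-1805181. It spans the 5′ end of hsp-16.41 and runs past the end of the printed stretch. Promoter elements nearest to a conservative summit had their centre 28 bp from it at hsp-110, 273 bp at hsp-90 and 311 bp at hsp-1. At hsp-110 that summit was the strongest, at hsp-90 it was the weaker outer one, and at hsp-1 it was the one 173 bp inside. From the strongest summit the element centres lay 851 and 921 bp away at hsp-90 and 406 bp away at hsp-1.

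The same forms were counted in the 101-base windows printed above, after those windows had been seen. The form GAANNTTC occurred in 4 of the 6 windows, at hsp-60, hsp-110, hsp-90 and hsp-1, against 6.68% of the windows at all 4384 conservative summits. The form TTCNNGAA occurred in 2 of them, at hsp-60 and hsp-110, against 5.22%. The triple element was present in the same 2 windows, against 1.85%, with its centre 30 bp from the summit at hsp-60 and 28 bp at hsp-110. The windows at hsp-6 and hsp-4 held neither form. These counts cover the strongest summit of each gene, whereas the shares cover every conservative summit. At the weaker conservative summits of hsp-1, hsp-90 and hsp-110 the windows held neither GAANNTTC nor the triple element. The form TTCNNGAA occurred among those at the outer hsp-90 summit alone. In the 300 bases before the genes, the word TGACGT, the core of an element of the endoplasmic reticulum stress response, was present at hsp-3, hsp-4 and hsp-70 (2007 of 19973 promoters), and TATAAA at 7 genes, all but hsp-1, hsp-6 and hsp-4 (39.6%). A match is a description of letters and not of binding.

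Other chaperone and stress response genes were listed by name to set the 10 genes in their pathway. Of 71 such genes 31 had a conservative peak (43.7%), against 15.8% of all protein-coding genes by the same rule. In replicate 1 there were 24, where 11.4% of all genes had one, and in replicate 2 there were 36, against 16.52%. Peaks were found at 7 of 11 cochaperone genes, 13 of 29 J-domain genes and 3 of 7 relatives of HSP70 and HSP90. There were also peaks at 4 of 14 small heat shock genes and 4 of 10 regulators. Of the small heat shock genes 2 had a summit within 500 bp, where 12.3% of all genes had one. Among the 7 relatives, listed by name, F11F1.1 is annotated by RefSeq as a DUF148 domain-containing protein and had no peak. The 8 genes with the highest signal were dnj-9 (signal 737), atfs-1 (697), dnj-13 (682), sip-1 (547), hsb-1 (512), dnj-19 (462), and F44E5.4 and F44E5.5, which share a peak (427). The dnj-19 summit lay 402 bp upstream of dnj-19 but 6 bp from the 5′ end of nhr-47.

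**Figure D5:**
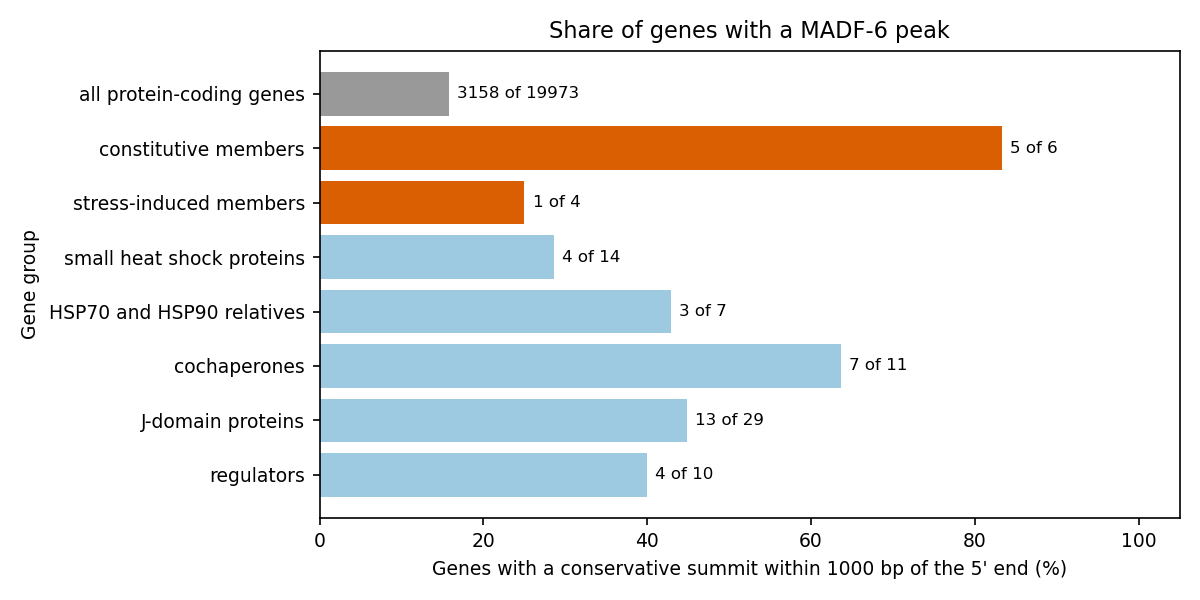
Share of genes with a conservative summit within 1000 bp of the 5′ end (x axis, %) by gene group (y axis), with counts at the bars. All protein-coding genes are in grey (3158 of 19973), the heat shock protein genes in orange and the other chaperone and stress response genes in blue.

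Among those genes are other HSP70 and small heat shock genes. The divergent genes F44E5.4 and F44E5.5, annotated as HSP70 genes, had a summit 158 bp upstream of the first and 193 bp upstream of the second, with a signal of 198 in replicate 1 and 237 in replicate 2. They lie in the same arrangement as hsp-16.2 and hsp-16.41, which had no thresholded peak. The small heat shock gene sip-1 had a summit 34 bp upstream, shared with sly-1 (signals of 213 in replicate 1 and 352 in replicate 2). Of the 4 gene entries named hsp-16.1 or hsp-16.48, 1 had a conservative peak (hsp-16.1, signal 131). Its summit lay 953 bp downstream of the 5′ end, past the end of this short gene, and was thresholded in replicate 2 and not in replicate 1. Each symbol names a pair of gene entries that RefSeq gives the same product, and whether reads could be assigned within a pair was not tested.

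Of the regulators of the stress responses, 4 of 10 had a conservative peak, against 15.8% of all protein-coding genes. The gene atfs-1, for the transcription factor of the mitochondrial response, had a summit 587 bp upstream (signals of 222 and 490 in replicates 1 and 2). The gene hsb-1, for a negative regulator of HSF-1, had one 436 bp upstream that lay nearer to let-99 (signals of 162 and 301). The gene ubl-5, for a ubiquitin-like protein of the mitochondrial response, had one 215 bp upstream (signals of 84.6 and 194). The gene xbp-1, for the transcription factor of the endoplasmic reticulum response, had one 11 bp upstream with a signal of 103, thresholded in replicate 2 and not in replicate 1. No conservative peak lay within 1000 bp of hsf-1, the heat shock factor gene itself, or of ire-1, atf-6, pek-1, dve-1 and haf-1. Of these, atf-6, pek-1 and dve-1 are X-linked, and 2.93% of X-linked genes had a conservative peak by the same rule. At hsf-1 the best ranked signal was 42.0 with a score of 85, and ire-1 had a peak in the thresholded list of replicate 2 alone (signal 80.2).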

How the data were processed

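Per the labels, chromatin of 2 biological replicates was sheared by sonication and recovered with an anti-GFP antibody. The authors deposited peak lists on the ce11 assembly, in thresholded and ranked form. The labels name a possible control experiment, not analysed here, and do not say how it entered the peak lists. Neither the aligner nor the caller is given in the sources used here. Peak signal and the score (a scaled irreproducible discovery rate, capped at 1000) are values the authors deposited with each peak, and signal scales differ between lists. The summit offset is the authors' value counted from the peak start. The 10 unnamed columns in each combined ranked list were not used.

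Coordinates are 1-based. Genes came from Ensembl release 115 (WBcel235, the ce11 assembly), products and sequence from RefSeq's copy of that assembly. Summits were joined to 5′ ends in Python 3.11.15 and a summit counted for every gene within 1000 bp. The joining of summits to genes within 1000 bp was checked on simulated summits. The members and lists were chosen with earlier results of these data known. Named genes are all members, their neighbours within reach, the 8 strongest other chaperone genes, all regulators and the 3 genes most like hsp-60; other genes of small groups were named after their values were seen. No test between groups was possible with 1 group. Replicates differ in list length, which limits comparison of ranks. Plots were drawn with matplotlib 3.10.9.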

Additional observations from a re-analysis of the deposited data

How the results depend on the processing

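The count of 6 heat shock genes with a peak was also 6 with any base of the peak within reach (16.54% of all genes), any transcript 5′ end (16.6%), the less strict list (17.3%), the 2192 peaks of highest signal (10.3%) and each replicate's own list. It was 4 with 500 bp and 4 with the nearest gene alone (each 12.3% of all genes). With 250 bp it was 1 of 10, near the 8.14% of all genes, and that 1 was the exon peak of hsp-1 (173 bp inside, signal 85.5), which replicate 1 did not threshold. With 250 bp the constitutive count was also 1, against 5, and it was 3 with the nearest gene alone. The stress-induced count of 1 fell to 0 with 500 bp and to 0 with 250 bp, since the hsp-4 summit lies farther out. Counting hsp-6 and hsp-60 as stress-induced gave 3 of 4 constitutive and 3 of 6 stress-induced genes. Leaving out a replicate gave 6 members, 5 constitutive and 1 stress-induced, both times, and 24 to 36 of the other chaperone genes, a count that ran from 21 to 36 over all alternatives. The median percentile of the strongest peaks was 90.8 in the conservative list, 99.3 in replicate 1's ranked list and 99.4 in replicate 2's, which are longer lists with weaker peaks. No paired analysis was possible because there is 1 group. The unknown depth leaves it unmeasured how weak a signal either replicate could have shown at hsp-3, hsp-70, hsp-16.2 and hsp-16.41.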

Other observations

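The letters of the 10 summit windows at the heat shock genes were searched for shared words of 8 bases, each pooled with its reverse complement, after the peaks had been seen and with no test. The largest number of windows holding any word was 3, reached by 4 words, of which 3 consisted of A and T alone. The fourth, CGAGACCC, occurred in the windows at hsp-110, hsp-6 and hsp-4 printed above, and in 278 of the windows at all 4384 conservative summits (6.34%).

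The ranked list behind the conservative list held 5 peaks within 1000 bp of hsp-1 and 5 at hsp-4. Peaks that overlap another peak of the same list, as the inner pair at hsp-1 does, made up 411 of 4384 (9.38%).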
